A study of Mus musculus with 15 samples.

Results

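Loss of TAF6L was set directly against loss of TAF5L in J1 mouse embryonic stem cells, a pluripotent line kept here in serum medium that contains leukaemia inhibitory factor (LIF). The comparison used the 3 libraries titled Taf6l-KO and the 3 titled Taf5l-KO, which are 6 of the 15 libraries of the series. The 3 wild-type J1 libraries prepared for these knockouts, called WT-Taf here, place the levels of both. The libraries were made from total RNA depleted of ribosomal RNA, and the question was which genes separate the 2 knockouts. All 3 groups share the J1 background and the medium, and carry no other allele or treatment that the labels name. The labels do not say how the knockouts were made, whether a knockout is a single clone, or whether replicates came from separate cultures, and the p-values therefore describe how these libraries vary, which could be technical variation alone.

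TAF5L and TAF6L are subunits of SAGA, a coactivator complex that is recruited to promoters by transcription factors. They belong to its structural core, where they take the places that TAF5 and TAF6 have in TFIID, the complex that binds core promoters. Other SAGA modules acetylate histone H3 through KAT2A or KAT2B and remove ubiquitin from histone H2B through USP22. In embryonic stem cells such coactivators act on genes of self-renewal and growth.

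Total counts were 17446821 to 21767884 per Taf6l-KO library, 17139357 to 20655500 per Taf5l-KO library and 14935631 to 20337365 per WT-Taf library. The markers of embryonic stem cells were high in all 9 libraries: Pou5f1 was 770.4, 805 and 792 CPM in the Taf6l-KO libraries, against 886, 878 and 859.6 CPM in the Taf5l-KO libraries and 922, 910.0 and 916 CPM in WT-Taf, and Nanog was 441, 450.4 and 475 CPM in the Taf6l-KO libraries, against 413, 414 and 402 CPM in the Taf5l-KO libraries and 496, 489 and 494 CPM in WT-Taf (CPM, counts scaled to a common library size). With edgeR and with DESeq2, 0 of 8 tested mesoderm markers, 0 of 10 primitive endoderm markers and 0 of 7 feeder fibroblast markers were called between the knockouts. At an unadjusted p under 0.05 there were 1, 2 and 1, beside 4956 of all 15743 tested genes. With edgeR 1 of 5 neuroectoderm and 1 of 10 trophectoderm markers were called, beside 18.7% over all tested genes. Summed endoderm markers were only 12.4 to 14.2 CPM in Taf6l-KO and 11.4 to 13.4 CPM in Taf5l-KO. At such levels differences could be missed. The summed level of the feeder markers was 19.9 to 22.3 CPM in Taf6l-KO, 18.5 to 19.3 CPM in Taf5l-KO and 20.9 to 22.1 CPM in WT-Taf. In these bulk samples fewer cells of a type and less RNA per cell cannot be told apart. Protein-coding genes held 80.7% ± 1.08 of counts in Taf6l-KO libraries, 77.3% ± 1.39 in Taf5l-KO libraries and 79.7% ± 0.292 in WT-Taf libraries (SD, n = 3 each). The 2 knockouts did not overlap, and the exact two-sided permutation p of 0.1 is the smallest that 3 against 3 libraries can give.

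The targeted genes were examined first, because they check the labels. Taf5l (ENSMUSG00000038697), a core subunit of SAGA, was 87.7, 89.4 and 92.0 CPM in the Taf6l-KO libraries, against 43.0, 42.9 and 41.7 CPM in the Taf5l-KO libraries and 88.1, 85.3 and 84.5 CPM in WT-Taf. The Taf5l-KO libraries stood apart from both other groups, and the direct log2 fold change, Taf6l-KO over Taf5l-KO, was 1.08 ± 0.036 (SE; adjusted p = 7.17e-10, edgeR's quasi-likelihood test with Benjamini-Hochberg adjustment). Taf6l (ENSMUSG00000003680) was 6.53, 7.17 and 6.06 CPM in the Taf6l-KO libraries, against 18.6, 21.6 and 21.3 CPM in the Taf5l-KO libraries and 26.8, 26.3 and 25.2 CPM in WT-Taf. It was lowest in every Taf6l-KO library, and every Taf5l-KO library was also below every WT-Taf library (log2 fold change -1.65 ± 0.082 SE, adjusted p = 4.04e-08; against WT-Taf, -1.99 in Taf6l-KO and -0.35 in Taf5l-KO). Both targeted genes kept a measurable level of RNA in their own knockout, so each library matched its label by a lower level and not by absence.

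**Figure D1:**
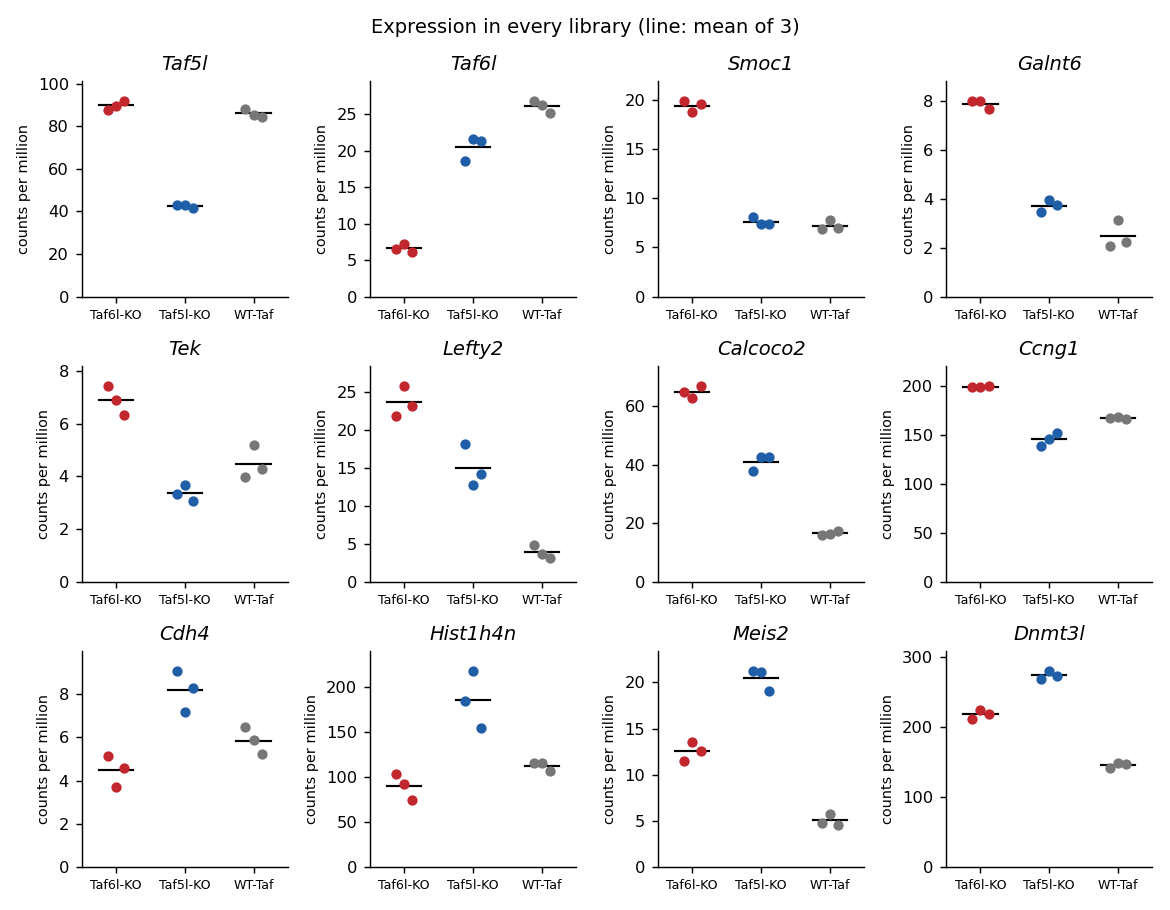
Expression of 12 genes in every library, in CPM on linear axes that start at 0, with Taf6l-KO in red, Taf5l-KO in blue and WT-Taf in grey; each point is a library and each line the mean of 3. Taf6l-KO and Taf5l-KO libraries do not overlap in any of the 12 panels, which the naming rule required for some of them. Tek, Ccng1, Cdh4 and Hist1h4n have WT-Taf between the knockouts.

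Most genes that separated the knockouts did so by a small amount. Of 15743 genes tested, 1346 were higher in Taf6l-KO (8.55% of those tested) and 1592 were lower (10.1%), together 2938 genes (18.7%) at an adjusted p under 0.05. The median size of the log2 fold change among these was 0.25, only 357 differed at least 1.5-fold, and 117 (0.743%) differed at least 2-fold, 89 of them higher and 28 lower. For 6103 genes (38.8%) the 95% interval of the difference lay within 1.2-fold either way. The 3 Taf6l-KO libraries lay wholly above or wholly below the 3 Taf5l-KO libraries for 5464 genes (34.7%). Among the 1346 genes higher in Taf6l-KO, the WT-Taf mean lay between the knockout means for 685, below both for 446 and above both for 215. Among the 1592 lower genes, it lay between for 616, below both for 390 and above both for 586.

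Higher genes made up 45.8% of calls with the scaling used here (TMM, a trimmed mean of ratios over genes) and 83.1% with scaling to library totals, with 3045 higher and 618 lower genes. The median log2 fold change over all tested genes was 0.005 with TMM and 0.097 with library totals, so differences of that size depend on the scaling. Under a test that asks for more than 1.2-fold, 97 genes were higher and 81 lower. DESeq2 called 692 higher and 1139 lower of 27093 genes, and 4956 of 15743 genes had an unadjusted p under 0.05 in edgeR. Counts of list members under another setting belong beside the counts over all genes under that setting. The shares of 8.55% and 10.1% apply only to the main fit with edgeR and TMM. For comparison with WT-Taf, 5861 genes (37.2%) were called in Taf6l-KO and 5234 (33.2%) in Taf5l-KO; both comparisons share the WT-Taf libraries, so their values are given side by side only.

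**Figure D2:**
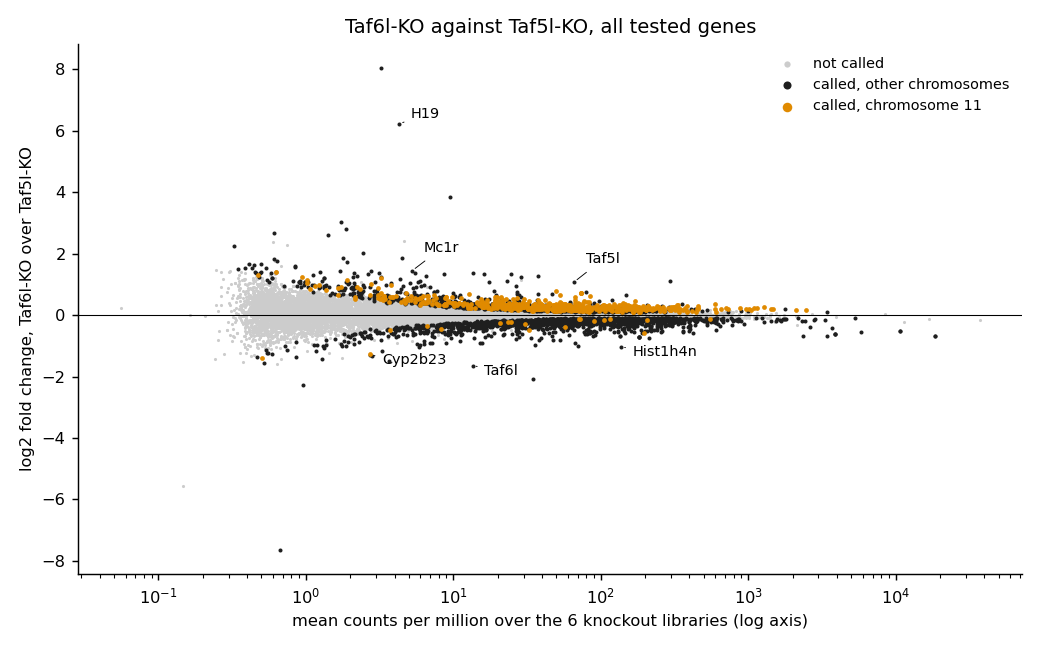
Log2 fold change, Taf6l-KO over Taf5l-KO, of every tested gene against its mean CPM over the 6 knockout libraries on a log axis; black and orange points passed an adjusted p of 0.05 and orange marks chromosome 11. Orange points lie almost wholly above 0, and H19, Mc1r, Taf5l, Hist1h4n, Taf6l and Cyp2b23 are named.

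The broadest difference followed a chromosome. Of 1300 tested genes on chromosome 11, 541 were higher in Taf6l-KO and 19 lower (43.1% called, against 16.5% of the 14443 genes elsewhere, where 5.57% were higher and 10.9% lower), with a median log2 fold change of 0.21. Chromosome 11 holds 8.26% of tested genes, yet it held 40.2% of the genes called higher and 1.19% of those called lower. It was the only chromosome whose share of called genes was over 1.5 times that of all tested genes. Its genes took 9.10%, 9.31% and 9.37% of all counts in the Taf6l-KO libraries, against 7.75%, 7.56% and 7.83% in the Taf5l-KO libraries and 8.21%, 8.24% and 8.24% in WT-Taf. The knockouts therefore lay on either side of WT-Taf, and the median difference from WT-Taf was 0.16 in Taf6l-KO and -0.060 in Taf5l-KO.

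The difference ran along the whole chromosome. In 26 consecutive windows of 50 tested genes, in gene order, every window median lay between 0.122 and 0.313, whereas 0 of 262 windows on other chromosomes had a median above 0.1 (highest 0.077). Split into 3 parts of 433 to 434 genes by mean count, the chromosome's genes had medians of 0.258, 0.22 and 0.19 from the lowest counts to the highest, with 39, 196 and 306 genes called higher. Protein-coding genes gave 528 of the 541 calls. With scaling factors taken from genes outside chromosome 11, 1506 genes were higher and 1366 lower over the whole genome. Without any gene of chromosome 11 in the fit, 864 were higher and 1259 lower. The scaling of the first and the fit of the second also left out genes without a matched chromosome. The 14443 genes elsewhere include 895 such genes.

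The 6 called genes of chromosome 11 with the smallest p-values are extremes, and each differed by more than the chromosome's median of 0.21. Calcoco2, an autophagy receptor, was 64.8, 62.9 and 67.1 CPM in the Taf6l-KO libraries, against 37.8, 42.6 and 42.7 CPM in the Taf5l-KO libraries and 16.1, 16.5 and 17.3 CPM in WT-Taf. For Calcoco2 the log2 fold change was 0.66 ± 0.049 (SE; edgeR adjusted p = 1.93e-06). Both knockouts were above WT-Taf, and Taf6l-KO was the higher. Rdm1, a protein with a RAD52 motif, was 61.3, 60.1 and 68.1 CPM in the Taf6l-KO libraries, against 36.1, 37.8 and 37.3 CPM in the Taf5l-KO libraries and 30.7, 31.6 and 29.2 CPM in WT-Taf. For Rdm1 the log2 fold change was 0.77 ± 0.051 (SE; edgeR adjusted p = 6.81e-07). Tex19.1, a germline and placenta gene, was 99.8, 104 and 105 CPM in the Taf6l-KO libraries, against 67.0, 70.0 and 64.7 CPM in the Taf5l-KO libraries and 62.9, 56.9 and 63.5 CPM in WT-Taf. For Tex19.1 the log2 fold change was 0.61 ± 0.044 (SE; edgeR adjusted p = 1.57e-06). Ccng1, the p53 target cyclin G1, was 198, 199 and 200 CPM in the Taf6l-KO libraries, against 138, 146 and 152 CPM in the Taf5l-KO libraries and 168, 168 and 166 CPM in WT-Taf. For Ccng1 the log2 fold change was 0.45 ± 0.034 (SE; edgeR adjusted p = 2.17e-06). Ccng1 alone of these genes rose in Taf6l-KO and fell in Taf5l-KO against WT-Taf. Snap47, a SNARE protein (log2 fold change 0.40 ± 0.033), and Wdr45l, a lipid-binding autophagy protein (0.41 ± 0.034), were also higher in every Taf6l-KO library than in any Taf5l-KO library.

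**Figure D3:**
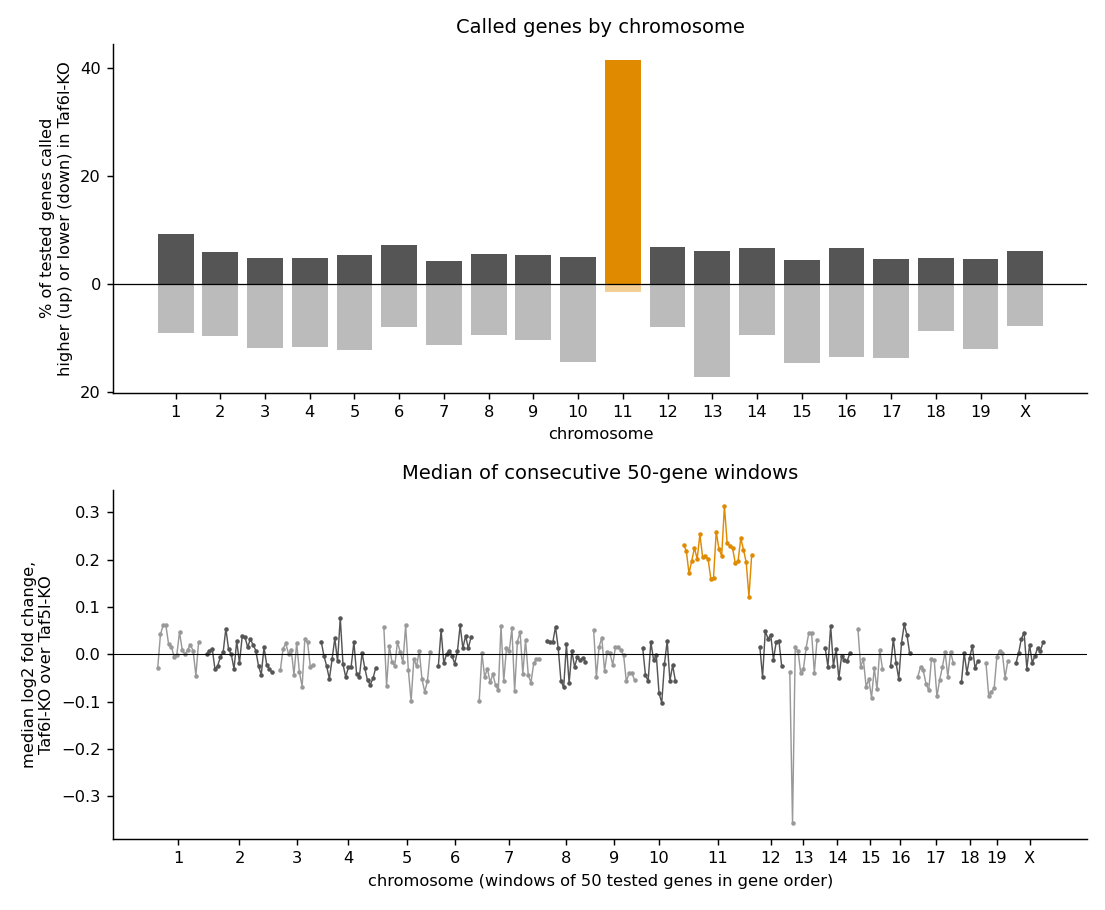
Upper panel: percentage of tested genes called higher (up) or lower (down) in Taf6l-KO against Taf5l-KO, by chromosome. Lower panel: median log2 fold change of consecutive windows of 50 tested genes in gene order. All windows of chromosome 11 (orange) lie from 0.122 to 0.313, and the lowest window of all, at -0.356, is on chromosome 13 and holds histone genes.

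Apart from Taf5l itself, the largest rises at well-counted genes were spread over several chromosomes, with several kinds of protein among them. Smoc1, a secreted calcium-binding matrix protein, was 19.96, 18.8 and 19.6 CPM in the Taf6l-KO libraries, against 8.07, 7.34 and 7.36 CPM in the Taf5l-KO libraries and 6.85, 7.76 and 6.97 CPM in WT-Taf. For Smoc1 the log2 fold change was 1.36 ± 0.075 (SE; edgeR adjusted p = 1.07e-07). Arhgap30, a GTPase-activating protein, was 23.0, 23.3 and 23.7 CPM in the Taf6l-KO libraries, against 8.73, 9.68 and 9.29 CPM in the Taf5l-KO libraries and 8.46, 8.80 and 7.85 CPM in WT-Taf. For Arhgap30 the log2 fold change was 1.34 ± 0.067 (SE; edgeR adjusted p = 4.04e-08). For both genes the Taf5l-KO libraries were close to WT-Taf, with log2 fold changes against it of 0.07 and 0.14 that were not called. Galnt6, which starts mucin-type O-glycosylation, was 7.97, 7.999 and 7.67 CPM in the Taf6l-KO libraries, against 3.44, 3.92 and 3.76 CPM in the Taf5l-KO libraries and 2.05, 3.13 and 2.23 CPM in WT-Taf. For Galnt6 the log2 fold change was 1.08 ± 0.13 (SE; edgeR adjusted p = 7.8e-05). Tek, the receptor for angiopoietins, was 7.43, 6.90 and 6.34 CPM in the Taf6l-KO libraries, against 3.32, 3.67 and 3.08 CPM in the Taf5l-KO libraries and 3.99, 5.17 and 4.26 CPM in WT-Taf. For Tek the log2 fold change was 1.03 ± 0.13 (SE; edgeR adjusted p = 0.000105). Taf6l-KO rose against WT-Taf in Tek (0.61) and Taf5l-KO fell (-0.42).

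Other large rises varied more between libraries. Prr15 was 42.8, 50.0 and 68.4 CPM in the Taf6l-KO libraries, against 8.90, 25.1 and 32.0 CPM in the Taf5l-KO libraries and 26.3, 16.6 and 11.1 CPM in WT-Taf. For Prr15 the log2 fold change was 1.27 ± 0.3 (SE; edgeR adjusted p = 0.00901). Its libraries spread widely in every group. The transcription factor gene Zbtb20 had a log2 fold change of 1.24 ± 0.2, the phosphatase gene Dusp23 1.12 ± 0.23, and Klhl31, which encodes a kelch-like protein, 1.26 ± 0.28. Mc1r, the melanocortin receptor gene, had 1.45 ± 0.26, Ncan, which encodes the proteoglycan neurocan, 1.08 ± 0.18, and the kainate receptor gene Grik4 0.99 ± 0.24. The naming rule took only genes whose 3 Taf6l-KO libraries all lay above the 3 Taf5l-KO libraries, so that order is no separate support. In each of these genes replicate 1 was the lowest Taf5l-KO library. In Prr15, Dusp23, Klhl31, Mc1r, Ncan and Grik4, replicate 1 was also the lowest Taf6l-KO library and the highest WT-Taf library. These genes thus varied together between libraries and are not separate observations. The cause of this shared order was not tested.

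Among genes with fewer counts, H19, an imprinted non-coding RNA expressed from the maternal allele, had the clearest difference. It had 177, 159 and 192 counts in the Taf6l-KO libraries, against 1, 2 and 3 counts in the Taf5l-KO libraries and 7, 11 and 9 counts in WT-Taf. Scaled to library size, the ratio of the summed counts (528 against 6) was 78.8, with a 95% interval of 36.0 to 216 from exact binomial counting error alone. Taf6l-KO was above and Taf5l-KO below WT-Taf, each past the threshold. Igf2, the imprinted neighbour of H19 that encodes an insulin-like growth factor, was 1.94, 2.37 and 2.25 CPM in the Taf6l-KO libraries, against 2.55, 2.04 and 2.24 CPM in the Taf5l-KO libraries and 2.64, 1.64 and 2.64 CPM in WT-Taf, and its difference was not called (log2 fold change -0.059 ± 0.2 SE, adjusted p = 0.88). Capn11, a calpain protease, was 1.67, 3.25 and 2.39 CPM in the Taf6l-KO libraries, against 0.297, 0.408 and 0.47 CPM in the Taf5l-KO libraries and 0.539, 0.696 and 0.474 CPM in WT-Taf. For Capn11 the log2 fold change was 2.59 ± 0.32 (SE; edgeR adjusted p = 0.000105). Xlr3b, of a multigene family on the X chromosome whose reads may be split between copies, was 2.93, 2.76 and 4.13 CPM in the Taf6l-KO libraries, against 0.534, 0.306 and 0.574 CPM in the Taf5l-KO libraries and 0.647, 0.547 and 0.474 CPM in WT-Taf. For Xlr3b the log2 fold change was 2.80 ± 0.27 (SE; edgeR adjusted p = 1.96e-05). Hspa14 also passed the rule, but it had counts only in the Taf6l-KO libraries, 1 of 3 WT-Taf libraries and a single count in Taf5l-KO, so its value is uncertain and no fold is given.

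The largest falls were led by Taf6l and by histone genes, described next, and included genes of adhesion and development. Cdh4, which encodes R-cadherin, was 5.14, 3.70 and 4.59 CPM in the Taf6l-KO libraries, against 9.08, 7.19 and 8.30 CPM in the Taf5l-KO libraries and 6.47, 5.87 and 5.21 CPM in WT-Taf. For Cdh4 the log2 fold change was -0.86 ± 0.13 (SE; edgeR adjusted p = 0.00053). Meis2, a homeobox transcription factor of developing tissues, was 11.4, 13.6 and 12.5 CPM in the Taf6l-KO libraries, against 21.3, 21.2 and 19.099 CPM in the Taf5l-KO libraries and 4.798, 5.77 and 4.54 CPM in WT-Taf. For Meis2 the log2 fold change was -0.72 ± 0.084 (SE; edgeR adjusted p = 7.68e-05). Both knockouts were above WT-Taf in Meis2, by 1.30 in Taf6l-KO and 2.01 in Taf5l-KO. Nckap1l, a subunit of the WAVE actin regulator in blood cells, was 21.4, 20.6 and 21.2 CPM in the Taf6l-KO libraries, against 36.4, 33.6 and 33.9 CPM in the Taf5l-KO libraries and 19.7, 21.8 and 22.3 CPM in WT-Taf. For Nckap1l the log2 fold change was -0.71 ± 0.055 (SE; edgeR adjusted p = 2.45e-06). D1Pas1, an RNA helicase related to DDX3X with which it may share reads, was 68.8, 68.1 and 68.8 CPM in the Taf6l-KO libraries, against 106, 111 and 112 CPM in the Taf5l-KO libraries and 67.0, 68.3 and 62.1 CPM in WT-Taf. For D1Pas1 the log2 fold change was -0.68 ± 0.038 (SE; edgeR adjusted p = 1.07e-07). In Nckap1l and D1Pas1 the Taf6l-KO libraries were at the WT-Taf level, and the Taf5l-KO libraries were higher. Clca4, of the calcium-activated chloride channel regulator family (log2 fold change -0.84 ± 0.087), and Sorcs2, a receptor of the sortilin family (-0.70 ± 0.1), were also highest in Taf5l-KO. Among genes with fewer counts, Cyp2b23, a cytochrome P450, was 1.58, 1.65 and 1.52 CPM in the Taf6l-KO libraries, against 3.86, 4.23 and 3.65 CPM in the Taf5l-KO libraries and 4.42, 5.82 and 5.35 CPM in WT-Taf. For Cyp2b23 the log2 fold change was -1.31 ± 0.16 (SE; edgeR adjusted p = 9.51e-05). Samd9l (-1.01 ± 0.19), Sh2d4b (-1.003 ± 0.27) and Dync1i1, an intermediate chain of dynein (-0.99 ± 0.27), were lower as well. The calls of Sh2d4b and Dync1i1 were lost without some single libraries.

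Replication-dependent histone genes were the group with the highest share of called members. These genes make the histones that package newly replicated DNA, and their mRNAs end in a stem-loop instead of a poly(A) tail. Of 70 tested, 59 were lower in Taf6l-KO and 1 was higher, beside 10.1% lower and 8.55% higher over all tested genes, and their median log2 fold change was -0.445 against 0.005 over all tested genes. Against WT-Taf the medians were -0.527 in Taf6l-KO and -0.092 in Taf5l-KO. The fall covered all classes: 5 of 6 linker histone H1 genes, 17 of 20 H2A genes, 13 of 19 H2B genes, 12 of 12 H3 genes and 12 of 13 H4 genes were called lower. Together they took 1.19%, 1.16% and 1.096% of all counts in the Taf6l-KO libraries, against 1.57%, 1.51% and 1.26% in the Taf5l-KO libraries and 1.60%, 1.53% and 1.52% in WT-Taf. Taf5l-KO replicate 3 was the lowest of its group and still above every Taf6l-KO library.

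Within the group, Hist1h4n, an H4 gene, was 103, 91.7 and 74.3 CPM in the Taf6l-KO libraries, against 184, 217 and 154 CPM in the Taf5l-KO libraries and 115, 115 and 106 CPM in WT-Taf. For Hist1h4n the log2 fold change was -1.04 ± 0.11 (SE; edgeR adjusted p = 4.15e-05). Hist1h2ai, an H2A gene, was 29.0, 29.5 and 24.9 CPM in the Taf6l-KO libraries, against 52.95, 51.6 and 42.6 CPM in the Taf5l-KO libraries and 38.2, 32.2 and 35.2 CPM in WT-Taf. For Hist1h2ai the log2 fold change was -0.82 ± 0.086 (SE; edgeR adjusted p = 3.19e-05). In both genes Taf6l-KO fell below WT-Taf and Taf5l-KO rose above it, and Hist1h2ac (-0.20 and 0.32) and Hist1h1c (-0.20 and 0.12) moved the same way. Hist1h2bq was 27.0, 25.3 and 20.4 CPM in the Taf6l-KO libraries, against 47.8, 58.6 and 37.8 CPM in the Taf5l-KO libraries and 24.5, 29.0 and 29.8 CPM in WT-Taf. For Hist1h2bq the log2 fold change was -0.99 ± 0.13 (SE; edgeR adjusted p = 0.000191). Hist2h3c1 was 11.98, 8.495 and 11.99 CPM in the Taf6l-KO libraries, against 22.8, 22.6 and 15.8 CPM in the Taf5l-KO libraries and 8.25, 9.50 and 9.34 CPM in WT-Taf. For Hist2h3c1 the log2 fold change was -0.90 ± 0.14 (SE; edgeR adjusted p = 0.000554). In both, Taf5l-KO rose against WT-Taf (0.80 and 1.17), and the difference of Taf6l-KO from WT-Taf was not called (-0.19 and 0.27). Hist1h4h and Hist1h3a were called lower than WT-Taf in Taf6l-KO (-0.69 and -0.71) and were not called against WT-Taf in Taf5l-KO. For Hist1h4h the direct log2 fold change was -0.74. The H3 gene Hist1h3a was 158, 155 and 146 CPM in the Taf6l-KO libraries, against 245, 243 and 196 CPM in the Taf5l-KO libraries and 254, 245 and 254 CPM in WT-Taf. For Hist1h3a the log2 fold change was -0.57 ± 0.065 (SE; edgeR adjusted p = 6.3e-05). Its fall in Taf5l-KO against WT-Taf (-0.14) was not called. Hist3h2a, on chromosome 11, was the only member called higher, at 86.9, 90.4 and 80.7 CPM in the Taf6l-KO libraries, against 75.8, 77.0 and 64.2 CPM in the Taf5l-KO libraries and 128, 123 and 128 CPM in WT-Taf. For Hist3h2a the log2 fold change was 0.25 ± 0.06 (SE; edgeR adjusted p = 0.00988). Histone genes within a class have near-identical copies, so the values of single copies are uncertain where counting could split reads between them.

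Short elements recur in promoters of histone genes. The 4 shown were taken because they belong to the called gene with the smallest p-value in each core histone class, among genes with a matched promoter whose values no other row repeats. Each is the 150 bases before the annotated start, from RefSeq on GRCm38.p6, written 5′ to 3′ on the strand of the gene, with CCAAT or its reverse complement and TATAAA in capitals. A match was searched on both strands. Hist1h4n has no CCAAT and Hist1h2ai no TATAAA in the bases shown. Counted from the annotated start, TATAAA begins at -127 in Hist1h4n, -29 in Hist1h3b and -10 in Hist1h2bb.
Hist1h2ai (H2A, chr13:21716262-21716411, plus strand): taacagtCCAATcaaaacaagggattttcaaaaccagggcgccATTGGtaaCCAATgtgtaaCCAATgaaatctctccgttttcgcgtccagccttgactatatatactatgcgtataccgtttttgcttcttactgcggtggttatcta
Hist1h2bb (H2B, chr13:23746584-23746733, plus strand): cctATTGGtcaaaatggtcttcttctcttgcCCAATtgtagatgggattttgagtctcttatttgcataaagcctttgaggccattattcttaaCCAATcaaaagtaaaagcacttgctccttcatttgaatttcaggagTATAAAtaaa
Hist1h3b (H3, chr13:23752195-23752344, plus strand): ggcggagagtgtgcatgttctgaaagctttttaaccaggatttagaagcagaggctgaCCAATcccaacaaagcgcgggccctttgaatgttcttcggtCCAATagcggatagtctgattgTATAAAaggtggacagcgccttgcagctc
Hist1h4n (H4, chr13:21832198-21832347, minus strand): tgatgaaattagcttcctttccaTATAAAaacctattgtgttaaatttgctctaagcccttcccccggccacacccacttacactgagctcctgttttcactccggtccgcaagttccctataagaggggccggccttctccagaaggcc
In the 250 bases before the start, CCAAT occurred in 50 of 61 matched histone genes (81.97%) and in 34.46% of the first promoters of 27025 genes. TATAAA occurred in 29 of the 61 (47.54%) and in 12.97% of all. Among the 53 matched genes called lower the shares were 81.13% for CCAAT and 47.17% for TATAAA, close to those of all 61. The H2B gene Hist1h2bb was 224, 215 and 205 CPM in the Taf6l-KO libraries, against 332, 324 and 259 CPM in the Taf5l-KO libraries and 332, 326 and 326 CPM in WT-Taf. For Hist1h2bb the log2 fold change was -0.51 ± 0.069 (SE; edgeR adjusted p = 0.000191). The H3 gene Hist1h3b was 211, 203 and 193 CPM in the Taf6l-KO libraries, against 306, 292 and 249 CPM in the Taf5l-KO libraries and 307, 305 and 308 CPM in WT-Taf. For Hist1h3b the log2 fold change was -0.48 ± 0.059 (SE; edgeR adjusted p = 0.000102).

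The shares of other RNA classes were set beside these values. Small non-coding RNAs took 1.23% ± 0.188 of counts in Taf6l-KO, 1.62% ± 0.0841 in Taf5l-KO and 1.33% ± 0.108 in WT-Taf, and genes annotated as miRNA took 0.954% ± 0.113, 1.38% ± 0.255 and 1.32% ± 0.185 in the same order (SD, n = 3 each). The knockouts did not overlap in the small non-coding RNAs or in the miRNA-annotated genes, and each exact permutation p was 0.1. The part of these shifts in the histone result was not tested. With offsets that remove the trend of each library with GC content and transcript length, 55 histone genes were lower. Without each library in turn, 54 to 62 were lower.

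Targets of p53 moved the other way. p53 is a stress-activated transcription factor, and mouse embryonic stem cells transcribe its targets at a basal level. Of 29 tested genes of the list, 14 were higher in Taf6l-KO and 0 lower, with a median of 0.146, and 12 of the 14 lie outside chromosome 11. Over all tested genes 8.55% were higher and 10.1% lower. A 1.2-fold minimum left 3 higher, and 8 were higher with all 15 libraries in the fit and with limma on FPKM. DESeq2 gave 11 higher and 0 lower, and 17 were higher and 2 lower at an unadjusted p under 0.05 in edgeR. Among all genes the 1.2-fold minimum left 97 higher, and DESeq2 gave 692 higher and 1139 lower of 27093. An unadjusted p under 0.05 was reached by 4956 of 15743 genes in either direction. Perp, a p53 target of cell junctions, was 26.2, 21.9 and 23.9 CPM in the Taf6l-KO libraries, against 14.2, 13.4 and 14.0 CPM in the Taf5l-KO libraries and 12.1, 11.4 and 10.6 CPM in WT-Taf. For Perp the log2 fold change was 0.79 ± 0.074 (SE; edgeR adjusted p = 1.43e-05). Plk2, a polo-like kinase, was 19.103, 22.3 and 20.3 CPM in the Taf6l-KO libraries, against 15.3, 14.5 and 12.99 CPM in the Taf5l-KO libraries and 14.3, 14.9 and 15.4 CPM in WT-Taf. For Plk2 the log2 fold change was 0.53 ± 0.076 (SE; edgeR adjusted p = 0.000307). Btg2, an antiproliferative gene, was 29.7, 31.7 and 28.8 CPM in the Taf6l-KO libraries, against 22.2, 21.4 and 23.5 CPM in the Taf5l-KO libraries and 18.4, 19.6 and 19.5 CPM in WT-Taf. For Btg2 the log2 fold change was 0.42 ± 0.056 (SE; edgeR adjusted p = 0.000165). Mdm2, the ubiquitin ligase that limits p53, was 103, 106 and 106 CPM in the Taf6l-KO libraries, against 86.7, 89.1 and 87.6 CPM in the Taf5l-KO libraries and 76.8, 79.5 and 82.4 CPM in WT-Taf. For Mdm2 the log2 fold change was 0.26 ± 0.034 (SE; edgeR adjusted p = 0.000167). All these genes were above both Taf5l-KO and WT-Taf in every Taf6l-KO library. Trp53inp1 (0.30), Polk (0.32), Eda2r (0.26), Rap2b (0.24), Phlda3 (0.19), Apaf1 (0.18), Ckap2 (0.17) and Zmat3 (0.12) were also higher. Cdkn1a, the cell cycle inhibitor p21, had 0.039 ± 0.069 and Bax, a promoter of cell death, 0.0091 ± 0.041, and neither was called. Trp53 itself lies on chromosome 11 and was 379, 393 and 381 CPM in the Taf6l-KO libraries, against 342, 345 and 347 CPM in the Taf5l-KO libraries and 377, 370.5 and 382 CPM in WT-Taf (log2 fold change 0.16 ± 0.029 SE, adjusted p = 0.00169), at the WT-Taf level in Taf6l-KO.

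Genes of the ATF4 response, which supply amino acids and charge transfer RNAs when amino acids run short, were lower in Taf6l-KO. Of 35 tested, 18 were lower and 0 higher, with a median of -0.171; DESeq2 gave 16 lower and 0 higher, and 24 were lower and 0 higher at an unadjusted p under 0.05. Library totals left 10 lower and a 1.2-fold minimum 0. Over all tested genes 10.1% were lower in the main fit, 618 of 15743 with library totals and 81 with the 1.2-fold minimum. Among all genes DESeq2 gave 1139 lower of 27093, and 4956 of 15743 had an unadjusted p under 0.05 in either direction. Atf5, a transcription factor that ATF4 induces, was 27.5, 29.3 and 29.2 CPM in the Taf6l-KO libraries, against 37.8, 37.8 and 37.8 CPM in the Taf5l-KO libraries and 30.0, 26.2 and 28.6 CPM in WT-Taf. For Atf5 the log2 fold change was -0.40 ± 0.052 (SE; edgeR adjusted p = 0.000148). Pck2, the mitochondrial phosphoenolpyruvate carboxykinase, was 28.1, 30.3 and 29.4 CPM in the Taf6l-KO libraries, against 38.8, 38.5 and 38.0 CPM in the Taf5l-KO libraries and 41.8, 39.9 and 41.4 CPM in WT-Taf. For Pck2 the log2 fold change was -0.40 ± 0.044 (SE; edgeR adjusted p = 5.13e-05). In Atf5 the Taf5l-KO libraries were above WT-Taf, whereas in Pck2 the Taf6l-KO libraries were below it. The serine synthesis genes Phgdh, at 103, 111 and 111 CPM in the Taf6l-KO libraries, against 136, 136 and 130.2 CPM in the Taf5l-KO libraries and 133, 135 and 133 CPM in WT-Taf. For Phgdh the log2 fold change was -0.31 ± 0.035 (SE; edgeR adjusted p = 6.64e-05). Psat1 (-0.13 ± 0.031) were lower. Asns, asparagine synthetase, was 314, 325 and 324 CPM in the Taf6l-KO libraries, against 369.8, 391 and 388 CPM in the Taf5l-KO libraries and 344, 345 and 347 CPM in WT-Taf. For Asns the log2 fold change was -0.25 ± 0.031 (SE; edgeR adjusted p = 8.53e-05). Taf6l-KO fell and Taf5l-KO rose against WT-Taf. Nupr1, a small stress-induced chromatin protein (-0.51), the glutamine transporter Slc1a5 (-0.33), the proline synthesis enzyme Aldh18a1 (-0.29) and the aminoacyl-tRNA synthetases Nars (-0.23), Gars (-0.21), Sars (-0.18), Aars (-0.17), Eprs (-0.16) and Cars (-0.13) were also lower. Atf4 itself fell by 0.11 on the log2 scale (adjusted p = 0.0452). Trib3, Ddit3 and Chac1, targets of the same response, had log2 fold changes of -0.12, -0.034 and -0.25 that were not called.

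Lists of protein synthesis and energy supply differed in their counts, beside 10.1% lower and 8.55% higher over all tested genes. With library totals 618 of all 15743 genes were lower and 3045 higher. Of 59 tested cytosolic ribosomal protein genes, 22 were lower and 4 higher, with a median of -0.11, although scaling to library totals gave 10 lower and 8 higher. The lower count was 13 without Taf5l-KO replicate 2, 14 without Taf6l-KO replicate 3 and 37 without Taf5l-KO replicate 3. The higher count was 1 to 3 without single libraries. Rps21, of the small ribosomal subunit, was 197, 186 and 167 CPM in the Taf6l-KO libraries, against 248, 262 and 233 CPM in the Taf5l-KO libraries and 206, 196 and 195 CPM in WT-Taf. For Rps21 the log2 fold change was -0.43 ± 0.054 (SE; edgeR adjusted p = 0.00011). Rplp1, a protein of the ribosomal stalk, was 691, 712 and 683 CPM in the Taf6l-KO libraries, against 945, 895 and 762 CPM in the Taf5l-KO libraries and 883, 853 and 872 CPM in WT-Taf. For Rplp1 the log2 fold change was -0.32 ± 0.058 (SE; edgeR adjusted p = 0.00157). Ribosomal protein genes have many processed pseudogenes, so their values are uncertain where reads were split. Of 53 tested ribosome biogenesis genes, 10 were higher and 6 lower, and 7 of the 10 lie on chromosome 11, Pes1 (0.29), Ddx56 (0.31) and Tsr1 (0.31) among them. Library totals gave 19 higher and 1 lower, and 2 to 8 were lower without single libraries (2 or 3 without Taf5l-KO replicate 2 or any Taf6l-KO library). Of 38 genes of oxidative phosphorylation, 11 were lower and 1 higher, and of 29 glycolysis and hypoxia genes, 9 were lower and 3 higher; library totals gave 4 lower and 4 higher, and 2 lower and 5 higher. Without single libraries 6 to 13 genes of oxidative phosphorylation were lower (6 or 7 without Taf5l-KO replicate 2 or any Taf6l-KO library). For glycolysis and hypoxia 5 to 9 were lower (5 without replicate 1 of Taf5l-KO or of Taf6l-KO), and 1 was higher without Taf5l-KO replicate 2. Cox6a1, a subunit of cytochrome c oxidase, was 74.9, 71.6 and 63.1 CPM in the Taf6l-KO libraries, against 97.7, 106 and 82.7 CPM in the Taf5l-KO libraries and 82.8, 81.2 and 83.2 CPM in WT-Taf. For Cox6a1 the log2 fold change was -0.45 ± 0.075 (SE; edgeR adjusted p = 0.000885). Eno1, a glycolytic enolase, was 544, 584 and 564 CPM in the Taf6l-KO libraries, against 710.0, 688 and 663 CPM in the Taf5l-KO libraries and 774, 759 and 784 CPM in WT-Taf. For Eno1 the log2 fold change was -0.28 ± 0.035 (SE; edgeR adjusted p = 0.000102). Of 20 heat shock chaperone genes, 7 were lower and 1 higher (2 and 4 with library totals), with Hspb1 at -0.33 ± 0.032 and Hsph1 at -0.23 ± 0.032 lower, and Hspa4, on chromosome 11, higher (0.21 ± 0.032).

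Pluripotency genes split into higher and lower members. Of 30 tested naive pluripotency genes, active in the ground state of these cells, 10 were lower and 6 higher in Taf6l-KO, but 4 lower and 11 higher with scaling to library totals. Over all tested genes 10.1% were lower and 8.55% higher in the main fit. With library totals 618 of all 15743 genes were lower and 3045 higher. Gbx2, a homeobox target of LIF signalling, was 75.9, 73.4 and 75.5 CPM in the Taf6l-KO libraries, against 98.5, 92.8 and 95.7 CPM in the Taf5l-KO libraries and 119, 122 and 115 CPM in WT-Taf. For Gbx2 the log2 fold change was -0.35 ± 0.036 (SE; edgeR adjusted p = 2.73e-05). Nr0b1, an orphan nuclear receptor, was 95.8, 102 and 99.8 CPM in the Taf6l-KO libraries, against 118, 119 and 119 CPM in the Taf5l-KO libraries and 170.3, 159.6 and 167 CPM in WT-Taf. For Nr0b1 the log2 fold change was -0.25 ± 0.036 (SE; edgeR adjusted p = 0.000261). Klf5 was 203, 200.3 and 189 CPM in the Taf6l-KO libraries, against 241, 226 and 230.2 CPM in the Taf5l-KO libraries and 298, 281 and 283 CPM in WT-Taf. For Klf5 the log2 fold change was -0.24 ± 0.038 (SE; edgeR adjusted p = 0.00066). In these 3 genes both knockouts fell against WT-Taf, and Taf6l-KO was the lower. Pou5f1, whose values are given above, was slightly lower in Taf6l-KO (log2 fold change -0.15 ± 0.029 SE, adjusted p = 0.00268), and Nanog (log2 fold change 0.15 ± 0.032 SE, adjusted p = 0.00444) and Zfp42 (log2 fold change 0.17 ± 0.029 SE, adjusted p = 0.000849) were slightly higher. Sox2 had -0.086, Esrrb -0.068 and Klf4 0.057, and none of these was called. Pecam1, an adhesion molecule encoded on chromosome 11, was 61.3, 66.9 and 63.3 CPM in the Taf6l-KO libraries, against 52.5, 49.1 and 49.2 CPM in the Taf5l-KO libraries and 35.2, 37.0 and 37.4 CPM in WT-Taf. For Pecam1 the log2 fold change was 0.34 ± 0.044 (SE; edgeR adjusted p = 0.000141). Dppa3, a germline and early embryo gene with low counts here, was 1.49, 1.27 and 1.06 CPM in the Taf6l-KO libraries, against 0.356, 0.51 and 0.417 CPM in the Taf5l-KO libraries and 0.323, 0.298 and 0.338 CPM in WT-Taf. For Dppa3 the log2 fold change was 1.55 ± 0.29 (SE; edgeR adjusted p = 0.00186).

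Genes of LIF and FGF signalling had called members in both lists, beside 10.1% lower and 8.55% higher over all tested genes. Among all genes library totals gave 618 lower and 3045 higher of 15743, and DESeq2 1139 lower and 692 higher of 27093. An unadjusted p under 0.05 was reached by 4956 of 15743 genes in either direction. Of 14 tested genes of the LIF receptor and its STAT3 targets, 6 were lower and 2 higher, but 3 lower and 4 higher with scaling to library totals; Bcl3, a nuclear cofactor of NF-kappa-B, was 23.8, 25.2 and 26.1 CPM in the Taf6l-KO libraries, against 32.9, 33.0 and 33.3 CPM in the Taf5l-KO libraries and 35.05, 36.0 and 34.2 CPM in WT-Taf. For Bcl3 the log2 fold change was -0.40 ± 0.048 (SE; edgeR adjusted p = 8.46e-05). Stat3, on chromosome 11, had 0.11 ± 0.031. Of 17 tested genes of FGF-ERK signalling, 7 were lower and 0 higher, but 2 lower and 2 higher with library totals, and 4 lower without Taf5l-KO replicate 3, Taf6l-KO replicate 2 or Taf6l-KO replicate 3; DESeq2 gave 6 lower and 0 higher, and an unadjusted p under 0.05 gave 9 and 0. Dusp6, a phosphatase that limits ERK, was 60.1, 64.5 and 69.9 CPM in the Taf6l-KO libraries, against 71.5, 79.1 and 77.5 CPM in the Taf5l-KO libraries and 108, 101 and 106 CPM in WT-Taf. For Dusp6 the log2 fold change was -0.23 ± 0.054 (SE; edgeR adjusted p = 0.00816). Spry2, another feedback inhibitor, was 101, 107 and 103 CPM in the Taf6l-KO libraries, against 115, 124 and 121 CPM in the Taf5l-KO libraries and 125, 128 and 122 CPM in WT-Taf. For Spry2 the log2 fold change was -0.21 ± 0.037 (SE; edgeR adjusted p = 0.0012). Fgfr1, an FGF receptor, rose against WT-Taf in both knockouts (0.13 in Taf6l-KO, 0.35 in Taf5l-KO) and differed directly by -0.21 ± 0.036.

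The genes for de novo DNA methylation, Dnmt3l, Dnmt3a and Dnmt3b, rose against WT-Taf in both knockouts and were lower in Taf6l-KO than in Taf5l-KO. Dnmt3l, the cofactor of de novo DNA methylation, was 212, 224 and 219 CPM in the Taf6l-KO libraries, against 269, 280.2 and 273 CPM in the Taf5l-KO libraries and 141, 149 and 148 CPM in WT-Taf. For Dnmt3l the log2 fold change was -0.33 ± 0.033 (SE; edgeR adjusted p = 2.45e-05). Dnmt3a, a de novo methyltransferase, was 132, 126 and 129 CPM in the Taf6l-KO libraries, against 158, 156 and 160.3 CPM in the Taf5l-KO libraries and 106, 105 and 97.8 CPM in WT-Taf. For Dnmt3a the log2 fold change was -0.29 ± 0.035 (SE; edgeR adjusted p = 9.43e-05). Every Taf6l-KO library lay between WT-Taf and Taf5l-KO for both genes. Of 12 tested genes of DNA methylation and demethylation, 6 were lower in Taf6l-KO and 0 higher (5 and 0 in DESeq2, and 8 and 0 at an unadjusted p under 0.05, 2 and 0 with library totals), the others being Mbd3 (-0.17), Dnmt3b (-0.11), Dnmt1 (-0.10) and Uhrf1 (-0.094), whose call was lost without some single libraries. The lower count was 3 without Taf5l-KO replicate 2, Taf6l-KO replicate 1 or Taf6l-KO replicate 3. Over all tested genes 10.1% were lower and 8.55% higher, for this list and the next. Among all genes DESeq2 gave 1139 lower and 692 higher of 27093, and library totals 618 lower and 3045 higher of 15743. An unadjusted p under 0.05 was reached by 4956 of 15743 genes in either direction. Tet1 (0.0053) and Tet2 (-0.00057), which oxidise methylcytosine, were not called. Formative and primed epiblast genes were lower in 5 of 17 tested and higher in 0 (4 and 0 in DESeq2, 9 and 0 at an unadjusted p under 0.05, 2 and 0 with library totals), with Foxd3 at -0.17 and Etv4 at -0.16 among them beside the methyltransferases; both also fell against WT-Taf in both knockouts.

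**Figure D4:**
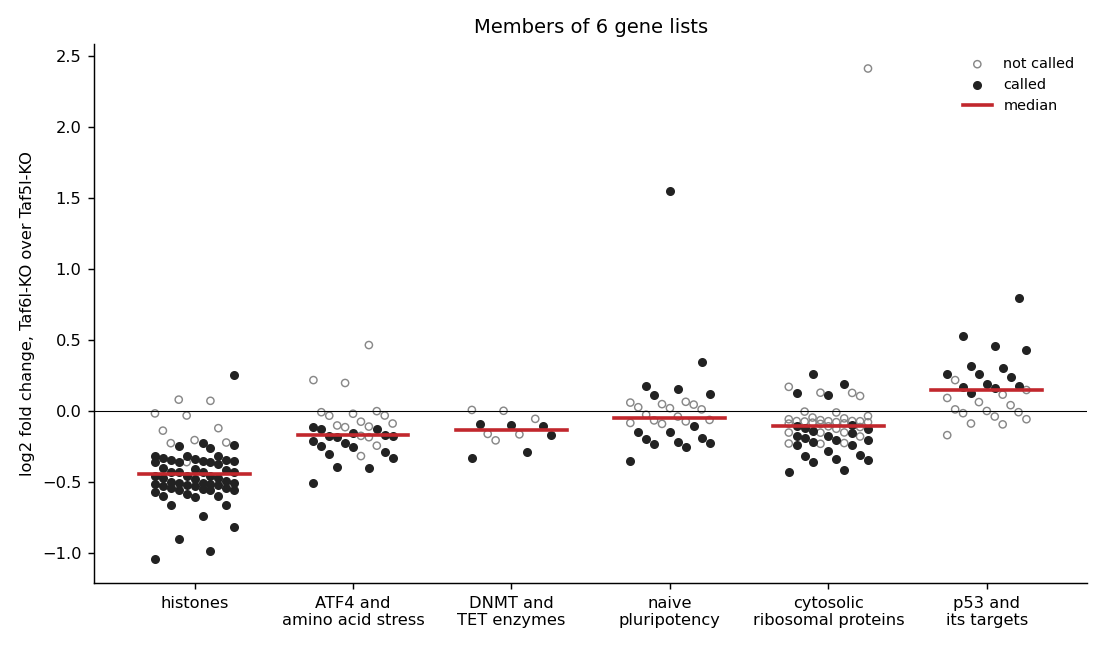
Log2 fold change, Taf6l-KO over Taf5l-KO, of every tested member of 6 gene lists; filled points passed an adjusted p of 0.05, open points did not, and red lines are medians. Histones have a median of -0.445 and ATF4 genes of -0.171, p53 genes have a median of 0.146, and naive pluripotency genes lie on both sides of 0.

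Within SAGA and TFIID, called subunits besides the targeted pair were 1 of the other 6 SAGA core genes and 4 of 17 TFIID genes, beside 18.7% over all tested genes. Among all genes library totals gave 618 lower and 3045 higher of 15743, and DESeq2 1139 lower and 692 higher of 27093. An unadjusted p under 0.05 was reached by 4956 of 15743 genes in either direction. Of 8 tested genes of the SAGA core, Taf10, shared with TFIID, was 39.4, 41.4 and 40.8 CPM in the Taf6l-KO libraries, against 49.2, 50.0 and 45.8 CPM in the Taf5l-KO libraries and 46.4, 46.7 and 46.6 CPM in WT-Taf. For Taf10 the log2 fold change was -0.25 ± 0.043 (SE; edgeR adjusted p = 0.000972). Taf9, Taf9b, Taf12, Supt7l and Tada1 were not called. Of 5 acetyltransferase module genes, Kat2b was lower (log2 fold change -0.19 ± 0.035 SE, adjusted p = 0.00196), and Kat2a was at 0.044 with a 95% interval of -0.03 to 0.12. Usp22, the deubiquitinase, lies on chromosome 11 and was 211, 217 and 216 CPM in the Taf6l-KO libraries, against 187, 179.5 and 184 CPM in the Taf5l-KO libraries and 168, 177 and 171 CPM in WT-Taf. For Usp22 the log2 fold change was 0.22 ± 0.031 (SE; edgeR adjusted p = 0.000261). The TFIID genes had 4 lower and 0 higher (1 and 5 with library totals, 2 lower without replicate 3 of Taf5l-KO or of Taf6l-KO, 2 and 0 in DESeq2, 5 and 2 at an unadjusted p under 0.05), namely Taf10, Taf4a (-0.17), Taf6 (-0.17) and Taf15 (-0.12); the calls of Taf6 and Taf15 were lost without some single libraries. In the MYC, MAX and MXD network 1 of 13 tested genes was called, Mlx on chromosome 11 (0.35 ± 0.047).

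Of the genes with the largest shared response to both knockouts, some were called between them and others were not. Nrp2, a co-receptor for semaphorins, was 38.0, 36.5 and 34.7 CPM in the Taf6l-KO libraries, against 29.1, 28.6 and 27.7 CPM in the Taf5l-KO libraries and 4.64, 3.58 and 4.06 CPM in WT-Taf, and the direct difference of 0.35 ± 0.057 was called. Lefty2, a secreted Nodal inhibitor, was 21.9, 25.9 and 23.2 CPM in the Taf6l-KO libraries, against 18.2, 12.7 and 14.2 CPM in the Taf5l-KO libraries and 4.798, 3.68 and 3.11 CPM in WT-Taf. For Lefty2 the log2 fold change was 0.66 ± 0.12 (SE; edgeR adjusted p = 0.00128). Lefty1, the related inhibitor, was 9.91, 10.8 and 11.2 CPM in the Taf6l-KO libraries, against 11.3, 9.94 and 9.76 CPM in the Taf5l-KO libraries and 2.43, 1.79 and 1.90 CPM in WT-Taf, with a direct log2 fold change of 0.041 and a 95% interval of -0.16 to 0.25. Both Lefty genes rose in both knockouts against WT-Taf; whether their direct differences differ from each other was not tested. Anxa2, a membrane-binding annexin, was 18.1, 19.6 and 20.3 CPM in the Taf6l-KO libraries, against 20.4, 19.7 and 17.7 CPM in the Taf5l-KO libraries and 4.31, 4.87 and 4.67 CPM in WT-Taf, with a 95% interval of -0.15 to 0.16. Lad1, a basement membrane gene (0.23, 0.051 to 0.41), and Lgals9, a galectin (-0.40, -0.70 to -0.11), were raised in both and not called directly.

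Among the genes most lowered in both, Grb10, an imprinted adaptor of insulin signalling, was 51.8, 50.9 and 46.2 CPM in the Taf6l-KO libraries, against 62.2, 63.2 and 70.4 CPM in the Taf5l-KO libraries and 166, 170.4 and 179 CPM in WT-Taf. For Grb10 the log2 fold change was -0.40 ± 0.055 (SE; edgeR adjusted p = 0.000236). It lies on chromosome 11 and was nevertheless lower in Taf6l-KO. Islr2, a membrane protein of neurons, was 7.39, 5.79 and 6.34 CPM in the Taf6l-KO libraries, against 5.05, 4.18 and 5.01 CPM in the Taf5l-KO libraries and 13.5, 16.1 and 15.1 CPM in WT-Taf. For Islr2 the log2 fold change was 0.47 ± 0.12 (SE; edgeR adjusted p = 0.018). This call was lost without some single libraries. Ankrd33b had a 95% interval of -0.17 to 0.086, Cbr3, a carbonyl reductase, of -0.17 to 0.36 and Shisa2 of -0.33 to 0.048; the threshold was not passed for these 3 genes, and the intervals bound the difference but do not show that it is 0.

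A smaller set of genes moved in opposite directions from WT-Taf. Of 97 genes called in both knockouts against WT-Taf with opposite signs and called directly, 57 were higher in Taf6l-KO, 50 of them on chromosome 11, and 40 were lower. Tuba3a, an alpha-tubulin with near-identical copies, was 33.0, 33.8 and 33.9 CPM in the Taf6l-KO libraries, against 19.8, 21.6 and 21.4 CPM in the Taf5l-KO libraries and 26.0, 27.6 and 29.5 CPM in WT-Taf. For Tuba3a the log2 fold change was 0.68 ± 0.055 (SE; edgeR adjusted p = 4.06e-06). Sar1b, a GTPase of vesicle export from the endoplasmic reticulum on chromosome 11, was 23.0, 24.4 and 23.5 CPM in the Taf6l-KO libraries, against 13.8, 16.3 and 17.4 CPM in the Taf5l-KO libraries and 20.4, 21.2 and 20.2 CPM in WT-Taf. For Sar1b the log2 fold change was 0.57 ± 0.072 (SE; edgeR adjusted p = 0.000115). Fn3krp (0.54), Znhit3 (0.52) and Vmp1, a membrane protein of autophagy (0.49), all on chromosome 11, had the same order of groups. In the other direction, Ccz1, part of an activator of the GTPase RAB7, was 70.8, 69.7 and 64.2 CPM in the Taf6l-KO libraries, against 99.5, 105 and 101 CPM in the Taf5l-KO libraries and 72.9, 74.2 and 78.2 CPM in WT-Taf. For Ccz1 the log2 fold change was -0.58 ± 0.042 (SE; edgeR adjusted p = 1.57e-06). Fam178b (-0.64) and Bach2, a transcription factor of lymphocytes (-0.58), were below WT-Taf in Taf6l-KO and above it in Taf5l-KO.

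Across the remaining lists, called members lay on both sides, beside 10.1% lower and 8.55% higher over all tested genes. With library totals 618 of all 15743 genes were lower and 3045 higher. Of 42 cell cycle and replication genes, 11 were lower and 3 higher, but 1 lower and 10 higher with library totals, and 7 lower without Taf6l-KO replicate 1 or 3. Ccnd3, cyclin D3, was 268, 267 and 263 CPM in the Taf6l-KO libraries, against 323, 315 and 309 CPM in the Taf5l-KO libraries and 398, 389 and 392 CPM in WT-Taf. For Ccnd3 the log2 fold change was -0.25 ± 0.029 (SE; edgeR adjusted p = 8.12e-05). Of 36 imprinted genes, 6 were higher and 5 lower (3 higher without Taf5l-KO replicate 1 or 2, or Taf6l-KO replicate 2 or 3), and Peg10 was the lower member with the smallest p (-0.40 ± 0.042). Polycomb subunits were higher in 2 and lower in 4 of 24, and 6 and 0 with library totals. The higher share was near the 8.55% over all tested genes, and the lower share was above the 10.1%. Leaving out any library but Taf5l-KO replicate 1 gave 1 or 2 lower. Both higher members, Suz12 (0.23) and Ezh1 (0.29), lie on chromosome 11. Of 36 lysosome and autophagy genes, 6 were higher and 7 lower, but 11 and 2 with library totals, and 3 or 4 were lower without Taf5l-KO replicate 3, Taf6l-KO replicate 1 or Taf6l-KO replicate 3. Sqstm1, an autophagy receptor on chromosome 11, was 156, 165 and 160.3 CPM in the Taf6l-KO libraries, against 123, 127 and 119 CPM in the Taf5l-KO libraries and 128, 123 and 124 CPM in WT-Taf. For Sqstm1 the log2 fold change was 0.38 ± 0.035 (SE; edgeR adjusted p = 1.13e-05). Extracellular matrix and adhesion genes were higher in 5 and lower in 4 of 30 (8 and 0 with library totals); the laminin genes Lamb1 (0.37 ± 0.043) and Lama1 (0.24 ± 0.043) were higher and rose against WT-Taf in both knockouts. Of markers of other lineages, Tubb3, a neuronal tubulin, was 55.8, 56.3 and 53.9 CPM in the Taf6l-KO libraries, against 45.4, 45.2 and 44.4 CPM in the Taf5l-KO libraries and 80.0, 79.4 and 75.5 CPM in WT-Taf. For Tubb3 the log2 fold change was 0.30 ± 0.039 (SE; edgeR adjusted p = 0.000144). Tead4, a trophectoderm factor, had -0.20 ± 0.051, a call lost without some single libraries. The summed picture of each list is in the plot of called members by list.

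**Figure D5:**
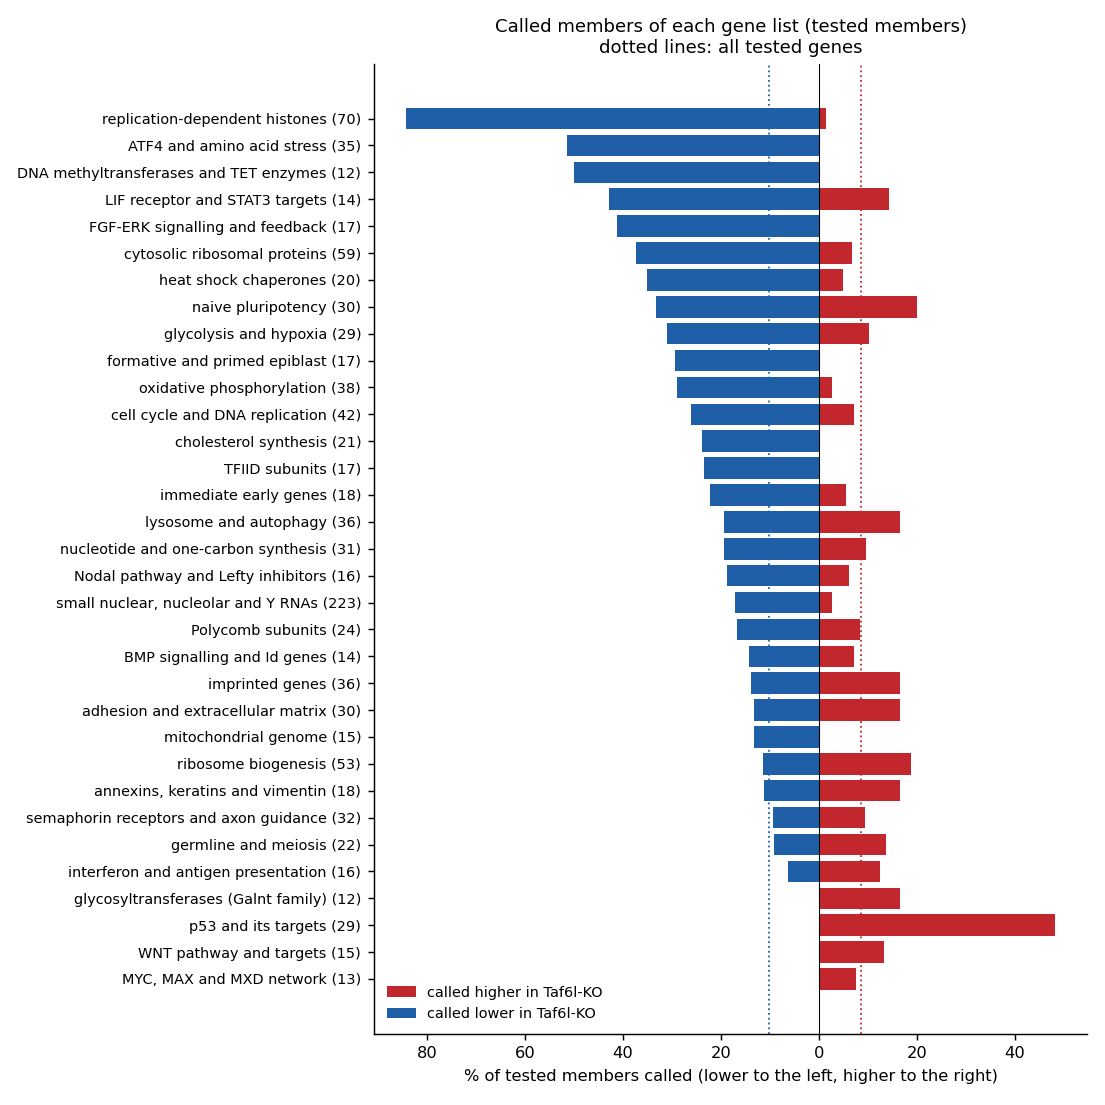
Percentage of tested members of each gene list called lower (blue, left) or higher (red, right) in Taf6l-KO against Taf5l-KO, for lists with at least 12 tested members and a call, with the number tested in brackets and dotted lines at the shares of all tested genes, 10.1% lower and 8.55% higher. Histones, ATF4 genes and DNA methylation genes reach the farthest left and p53 targets the farthest right.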

How the data were processed

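RNA of J1 mouse embryonic stem cells was sequenced from ribosomal RNA-depleted total RNA with a directional kit, per the labels' protocols. A table of raw counts deposited by the authors holds whole numbers for 37310 genes and no normalization. Salmon 0.8.2, DESeq2 1.14.1 and mm9 are named, without roles, in the submitters' processing notes. The authors also deposited FPKM values per gene, used only in alternatives, where genes averaging 0.5 FPKM or more were tested by limma after adding 1 or 0.1 and taking log2. The 15 columns of the deposited TPM table were not used, since their names could not be tied to every sample.

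Libraries were grouped by title. Counts of the 9 Taf-experiment libraries were fitted together in R 4.3.3 with edgeR 4.0.16 (filterByExpr, TMM, glmQLFit, glmQLFTest), contrast Taf6l-KO minus Taf5l-KO, adjusting p-values by Benjamini-Hochberg, and a difference had to reach an adjusted p under 0.05; "called" means past it. CPM are counts relative to the TMM-scaled library size (edgeR cpm). The standard error is the log2 fold change divided by the square root of F. The biological coefficient of variation was 4.23%. Counting intervals cover counting error only. Chromosomes and classes came from GENCODE M21 (GRCm38) by Ensembl ID (32620 IDs, 87.4%); no gene positions are printed because the files' build differs, and promoters came from RefSeq GRCm38.p6.

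The members, the 44 gene lists and the naming rule were chosen with earlier results of these data known. Named genes were the targeted pair; the 12 largest rises and 12 largest falls among calls that averaged 100 counts or more without overlap, leaving out clone-like names and small RNAs; up to 4 each way with fewer counts but at least 20 in each library of the higher group; from each list the 4 called members of smallest p at most, with any member moving in opposite directions; 6 genes each way of opposite or of shared response; and 6 per chromosome with over 1.5 times the share of calls. Other members named as examples were chosen after their values were seen.

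No replicate pair looked like one library deposited again (chi-square per degree of freedom 2.68 to 14.1). Alternatives were RLE, library totals, TMM outside chromosome 11, no filter, DESeq2 1.42.0, a 1.2-fold minimum, other sets of libraries, the replicate block, each library left out, protein-coding genes only and genes outside chromosome 11; limma 3.58.1 on FPKM and GC and length offsets were added after seeing the data. Tested on simulated counts for Taf6l-KO against Taf5l-KO over 15494 genes, 61.2% of the 1.5-fold changes were called, 72.5% of the 2-fold ones and 90.6% of the 4-fold ones. In that simulation 16 of 165 calls were false, a larger share than the threshold of 0.05. Only 67, 69 and 64 genes were changed at these sizes, against 2938 calls in the data, so these rates need not hold for the data.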

Additional observations from a re-analysis of the deposited data

Results flagged for a closer look

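These named genes were called in both knockouts against WT-Taf with opposite signs, and the direct difference between the knockouts was called too. The values are log2 fold changes, Taf6l-KO over Taf5l-KO.

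Outside chromosome 11, H19 (6.22), Tek (1.03), Tuba3a (0.68) and Sgk1, a serum- and glucocorticoid-regulated kinase (0.20), were higher in Taf6l-KO. On chromosome 11, Sar1b (0.57), Fn3krp (0.54), Znhit3 (0.52), Vmp1 (0.49), Ccng1 (0.45), Ddx56 (0.31), Tsr1 (0.31), Shmt1 (0.26) and Suz12 (0.23) were higher.

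The histone genes Hist1h4n (-1.04), Hist1h2ai (-0.82), Hist1h2ac (-0.51) and Hist1h1c (-0.32) were lower in Taf6l-KO. Cdh4 (-0.86), Fam178b (-0.64), Bach2 (-0.58) and Ccz1 (-0.58) were lower as well. So were the cytochrome c oxidase genes Cox6a1 (-0.45) and Cox5b (-0.28), the small chaperone Hspb1 (-0.33) and Asns (-0.25). A row named Y_RNA (-2.08) was lower; this name covers many near-identical copies, so its value is uncertain.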

How the results depend on the processing

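The fall of histone genes and the rise of chromosome 11 genes kept their direction under each alternative that tested them. Counts differ as follows. With library totals, 3045 genes were higher and 618 lower, 7 of the lower ones on chromosome 11; naive pluripotency had 11 higher and 4 lower, and 10 ATF4 genes were lower. Without the filter on low counts, 197 genes were called and at least 2-fold apart. A 1.2-fold minimum left 178 genes, 97 higher and 81 lower, 43 of them at least 2-fold; 37 higher and 2 lower lay on chromosome 11, and 21 histone, 0 ATF4 and 0 naive genes were lower, with 3 p53 targets and 1 naive gene higher. All 15 libraries in the fit gave 1647 genes, 803 higher and 844 lower, with 8 lower on chromosome 11, 6 naive genes lower and 8 p53 targets higher. Protein-coding genes only gave 75 genes at least 2-fold apart, and genes matched to a chromosome other than 11 gave 864 higher. DESeq2 gave 1831 genes, 692 higher and 1139 lower, 54 at least 2-fold, and 3 naive genes higher. limma on log2(FPKM + 1) gave 926 genes, 364 higher and 562 lower, 50 at least 2-fold, 214 higher and 7 lower on chromosome 11, 8 p53 targets higher and 33 histone genes lower; with log2(FPKM + 0.1) these were 923, 356, 567, 63, 214, 7, 8 and 35. The replicate block gave 1275 higher and 1577 lower; the numbers are not shown to pair the libraries, since deviations of same-numbered knockout libraries correlated by 0.00957, 0.069 and 0.0342. Without each library in turn, 2022 to 2785 genes were called, 909 to 1259 higher and 1113 to 1526 lower, 85 to 127 at least 2-fold, with 439 to 529 higher and 11 to 18 lower on chromosome 11 (11 without Taf5l-KO replicate 2). The cause of these changes was not tested.

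Signs turned for genes that were not called: Ankrd33b was 0.0499 with library totals; Anxa2 was -0.00136 without the filter, -0.00235 in DESeq2, -0.0198 with GC and length offsets and -0.0519 to 0.0515 without each library; Cbr3 was -0.00352 to 0.24 and Lefty1 -0.0013 to 0.107 without each library; Lefty1 was -0.0298 and -0.0315 and Col1a1 -0.266 and -0.394 with limma, for added values of 1 and 0.1. Of 161 called genes named, 141 stayed called in each of the 9 fits that leave out a library; the same-direction calls numbered 161 with RLE, 132 with library totals and 159 with the block or with GC and length offsets. Low counts limit genes such as H19, Capn11 and Dppa3, and 3 libraries a group limit every test.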

Other observations

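Small nuclear, nucleolar and Y RNAs, most of which work in splicing or guide RNA modification, were lower in 38 and higher in 6 of 223 tested rows, with a median log2 fold change of -0.157, beside 10.1% lower and 8.55% higher over all tested genes. Without single libraries 23 to 50 were lower, 23 of them without Taf6l-KO replicate 3. SNORA57, a nucleolar guide RNA, was 44.9, 40.4 and 33.9 CPM in the Taf6l-KO libraries, against 56.0, 65.5 and 53.2 CPM in the Taf5l-KO libraries and 38.2, 33.7 and 31.5 CPM in WT-Taf. For SNORA57 the log2 fold change was -0.55 ± 0.095 (SE; edgeR adjusted p = 0.00112). The Taf5l-KO libraries were the highest of the 3 groups. Near-identical copies make such values uncertain.

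In the Nodal pathway 3 of 16 tested genes were lower in Taf6l-KO and 1, Lefty2, was higher, beside 10.1% lower and 8.55% higher over all tested genes. Furin, a proprotein convertase that cleaves the Nodal precursor, was 33.4, 30.9 and 33.8 CPM in the Taf6l-KO libraries, against 43.5, 38.5 and 42.2 CPM in the Taf5l-KO libraries and 33.0, 32.4 and 31.0 CPM in WT-Taf. For Furin the log2 fold change was -0.33 ± 0.053 (SE; edgeR adjusted p = 0.000657). Its Taf6l-KO libraries were close to WT-Taf, and its Taf5l-KO libraries were higher. The related convertase Pcsk6 (-0.24 ± 0.043) and the intracellular inhibitor Smad7 (-0.22 ± 0.035) were also highest in Taf5l-KO.

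Of 18 immediate early genes 4 were lower and 1, Btg2, was higher (1 and 2 with library totals), beside 10.1% lower and 8.55% higher over all tested genes. With library totals 618 of all 15743 genes were lower and 3045 higher. Without Taf5l-KO replicate 1 or 2, or Taf6l-KO replicate 2 or 3, 1 or 2 were lower. Zfp36, an RNA-binding protein that destabilises mRNAs, was 8.11, 6.34 and 7.67 CPM in the Taf6l-KO libraries, against 9.91, 11.2 and 12.2 CPM in the Taf5l-KO libraries and 6.52, 4.72 and 5.89 CPM in WT-Taf. For Zfp36 the log2 fold change was -0.58 ± 0.12 (SE; edgeR adjusted p = 0.00384). The calls of Dusp1 (-0.30) and Ier2 (-0.14) were lost without some single libraries. S100a11, a calcium-binding protein, was 12.03, 11.6 and 11.3 CPM in the Taf6l-KO libraries, against 18.7, 15.4 and 15.6 CPM in the Taf5l-KO libraries and 9.92, 10.4 and 11.3 CPM in WT-Taf. For S100a11 the log2 fold change was -0.51 ± 0.084 (SE; edgeR adjusted p = 0.000872). It was 1 of 2 lower members among 18 annexin, keratin and vimentin-related genes, of which 3 were higher, Krt19 on chromosome 11 among them (1.25).

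With edgeR 5 of 21 cholesterol synthesis genes were lower and 0 higher, against 2 and 0 in DESeq2 and 7 and 1 at an unadjusted p under 0.05. Among all genes DESeq2 gave 1139 lower and 692 higher of 27093, and library totals 618 lower and 3045 higher of 15743. An unadjusted p under 0.05 was reached by 4956 of 15743 genes in either direction. Library totals gave 0 lower and 1 higher, and 2 or 3 were lower without either of Taf5l-KO replicates 1 and 2 or any Taf6l-KO library. Srebf2, which encodes the main activator of the pathway, was 184, 189.9 and 184 CPM in the Taf6l-KO libraries, against 212, 208 and 211 CPM in the Taf5l-KO libraries and 192, 197 and 199.7 CPM in WT-Taf. For Srebf2 the log2 fold change was -0.18 ± 0.03 (SE; edgeR adjusted p = 0.00099). Of 35 tested genes of the mitochondrial genome, 4 were lower and 0 higher with edgeR. In the list of 15 such genes, 2 were lower and 0 higher with edgeR. That list had 3 and 0 in DESeq2, and 9 and 1 at an unadjusted p under 0.05. The share lower over all tested genes was 10.1%. Without Taf5l-KO replicate 1 the list had 6 lower, without Taf6l-KO replicate 1 it had 8 and without Taf6l-KO replicate 3 it had 1.

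The remaining lists had the following counts, beside 8.55% higher and 10.1% lower over all tested genes. Higher and lower members numbered 3 and 6 of 31 for nucleotide and one-carbon synthesis, 1 and 2 of 14 for BMP signalling, 3 and 3 of 32 for semaphorin receptors and axon guidance, 3 and 2 of 22 for germline genes and 2 and 1 of 16 for interferon and antigen presentation. Of 15 WNT genes 2 were higher and of 12 Galnt genes 2 were higher, with none lower in either list by edgeR or DESeq2 (1 and 0 lower at an unadjusted p under 0.05). An unadjusted p under 0.05 was reached by 4956 of all 15743 tested genes in either direction. Of 7 mismatch repair genes, 1 was higher.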
